A study of Mus musculus with 15 samples.

Results

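The focal adhesion adaptor and kinase genes described here are 35 genes for cytoplasmic proteins that lie between the integrins and the actin cytoskeleton. They were chosen by name and not by a measured value. All 35 were rows of the deposited count table of 25382 genes, and 34 of them were among the 15190 genes with enough counts to be tested. The exception was PARVB. The table holds 15 RNA-seq libraries of primary tumours of MDAMB231 GFP+ Luc+ cells. MDA-MB-231 is a line of human triple-negative breast cancer, and this version carries a fluorescent and a luminescent reporter. The mice were of the strain labelled Nod/Skid. The weakly adherent group (6 libraries) came from cells sheared at 10 dyn/cm2, the strongly adherent group (4 libraries) from cells sheared at 50 dyn/cm2, and the unsorted group (5 libraries) from cells that were not sheared. The 3 groups share the cell line, its reporters and the host strain. Tumours were dissociated and the RNA of the whole suspension was sequenced, and the labels name no step that separates tumour cells from host cells. They give no age of the mice and do not tell the animals apart, and the p-values below therefore measure the spread between these libraries, which may in part be technical.

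A focal adhesion is the site at which a cell grips its matrix. Talin and the kindlins bind the tail of the integrin and switch it on, the ILK, PINCH and parvin complex and the tensins help hold it to actin, and the kinases FAK and Src, docked on paxillin and p130Cas, turn grip into signals for spreading and migration. Zyxin and other LIM domain proteins gather at adhesions under tension, where they help repair and reinforce actin fibres. In invasive breast cancer cells the turnover of these sites sets how fast a cell crawls and how hard it holds on, which is the property by which the cells of this study were sorted.

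Each title carries a number (4, 5, 6, 7-8, 9 or 10) whose meaning the labels do not give, and libraries are named below by group and number. The contrasts between adhesion groups were paired by that number. Numbers 4, 5, 6 and 9 hold all 3 groups, number 7-8 holds a weakly adherent and an unsorted library, and number 10 holds a single weakly adherent library, which adds nothing to a paired contrast. Libraries had 30372619 to 45434799 counts, and the members took 0.751% to 1.07% of the counts of a weakly adherent library, 0.855% to 1.06% of a strongly adherent library and 0.924% to 0.974% of an unsorted library. Values are CPM, the count scaled to the effective size of its library and not divided by gene length, so levels are compared between libraries and never between genes.

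Markers of the labelled cells did not look alike in all libraries. CDH1, the epithelial cadherin that MDA-MB-231 cells are known to lack, stood at 5.56, 0.267 and 0.407 CPM in the weakly adherent, strongly adherent and unsorted libraries of number 6 but at 53.1 to 549 CPM in the other 12 libraries. VIM, the mesenchymal filament protein, had 6489 to 7399 CPM in number 6, against 1143 to 4478 CPM elsewhere. The 10 mesenchymal markers as a list did not move one way: 3 passed as higher in number 6 (VIM, ZEB1 and MSN) and 3 as lower (SPARC, TWIST1 and CDH2), with SPARC at 41.4 to 56.3 CPM in number 6, against 103 to 216 CPM elsewhere. Of the 7 markers of the labelled line, VIM passed as higher there and CDH1, PGR and ERBB2 as lower. A list of 8 lung epithelium markers summed to 0.611 to 2.24 CPM in number 6 and to 18.6 to 358 CPM in the other 12. Of the 6 lung markers tested, 4 passed as lower in number 6 (NKX2-1, SFTPB, NAPSA and SLC34A2) and 0 as higher. SFTPC, SFTPD and SCGB1A1 reached at most 0.678, 0.534 and 0.2375 CPM in any library. What the lung markers mean for the breast label of the other 12 libraries was not tested. The list of 18 striated muscle markers summed to 181, 457 and 1160 CPM in the weakly adherent, strongly adherent and unsorted libraries of number 6, to 2981 CPM in strongly adherent library 5, and to 6.93 to 16.35 CPM in the other 11. In a bulk library, fewer cells of a type and less RNA per cell cannot be told apart. The part that these differences play in the values below was not tested. Counts between adhesion groups are also given without number 6 or strongly adherent library 5.

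**Figure D1:**
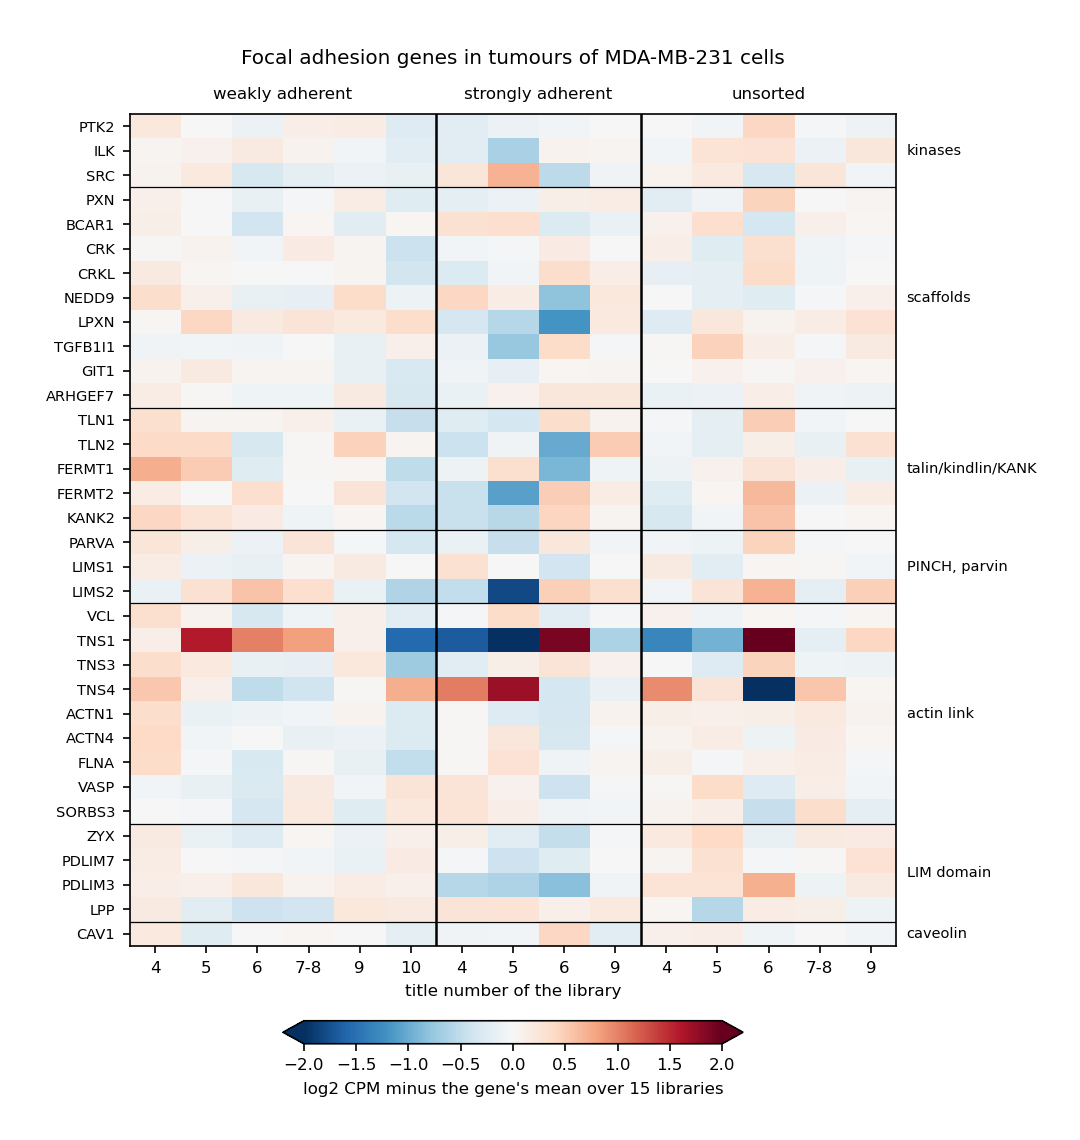
Level of the 34 tested members in every library. Rows are genes ordered by role and columns are libraries by adhesion group and title number. Colour is log2 CPM minus the gene's mean over the 15 libraries. TNS1 and TNS4 show the widest swings, with 21.4-fold and 78.0-fold between their highest and lowest library. PDLIM3 is pale blue to blue in strongly adherent libraries 4, 5 and 6 and close to white in strongly adherent library 9.

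Between adhesion groups the members differed little. No member passed an adjusted p of 0.05 in any of the 3 contrasts (edgeR quasi-likelihood test, Benjamini-Hochberg over the 15190 genes), and 0% of all genes did so in each of them. The clearest member by unadjusted p was PDLIM3, an actin-associated LIM domain protein first known from muscle, which was lower in the strongly adherent library of every number than in its weakly adherent or unsorted partner. Across the list, 23 of 34 members had a negative fold change in strongly adherent against unsorted tumours and 25 of 34 a positive one in weakly against strongly adherent tumours. Of all 15190 genes, 7276 had a negative one in the former and 7317 a positive one in the latter. These contrasts share the strongly adherent libraries, so they are not separate evidence. The members' median log2 fold change was 0.07 for weakly against strongly adherent, -7e-04 for weakly adherent against unsorted and -0.08 for strongly adherent against unsorted tumours, beside medians of -0.01, 0.01 and 0.01 over all genes tested. Their median absolute log2 fold changes were 0.16, 0.0826 and 0.151 in the same order, close to the 0.145, 0.0849 and 0.156 of all genes.

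Counts at an unadjusted p under 0.05, which no correction backs, ran as follows. In weakly against strongly adherent tumours they held 6 of 34 members (17.6%; FERMT2, LPXN, PDLIM3, SORBS3, TLN2 and TNS1), beside 6.78% of all genes (1030 genes). For weakly adherent against unsorted tumours the count was 0 members, beside 1.13% of all genes (172 genes). In strongly adherent against unsorted tumours they again held 6 members (17.6%; ACTN1, ILK, LPXN, PDLIM3, PDLIM7 and ZYX), beside 8.26% of all genes (1255 genes).

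These counts moved with the libraries used. Without number 6 they were 10 members (29.4%, beside 10.9% of all genes) for weakly against strongly adherent, 3 (8.82%, beside 7.34%) for weakly adherent against unsorted and 6 (17.6%, beside 11.2%) for strongly adherent against unsorted tumours. Without number 6 and strongly adherent library 5 they were 6 (17.6%, beside 4.04%), 7 (20.6%, beside 9.87%) and 1 (2.94%, beside 3.1%), in the same order. The last count was also 1 without strongly adherent library 5 alone (2.94%, beside 5.09%) and 2 without unsorted library 5 (5.88%, beside 3.73%). PDLIM3 was in each of those for strongly adherent against unsorted tumours. The count for weakly against strongly adherent tumours was 2, LPXN and PDLIM3, without weakly adherent library 5 (5.88%, beside 4.16%) or strongly adherent library 4 (5.88%, beside 4.17%). With DESeq2 and the title number in the model, 1 member passed the adjusted threshold in strongly adherent against unsorted tumours, PDLIM3, and none in the other contrasts, and limma voom passed none in any of the 3.

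The direction within numbers gives a second view. Against their unsorted partners, 10 of 34 members (29.4%) were lower in all 4 strongly adherent libraries, where 9.03% of all genes were: ACTN1, FERMT2, ILK, LIMS2, LPXN, PARVA, PDLIM3, PDLIM7, TNS1 and ZYX. The rule counts direction and not size: in number 9 the log2 difference was -0.00766 for ACTN1 and -0.01 for FERMT2. With the libraries of number 6 left out, 12 members (35.3%) were lower in the 3 remaining pairs, beside 18.1% of all genes. With strongly adherent library 5 left out, 12 members (35.3%) were lower in 3 pairs, beside 12.5% of all genes. Only SORBS3 (2.94% of members, against 10.7% of all genes) was higher in all 4 strongly adherent libraries, by a log2 difference of only 0.00779 in number 5. For weakly against strongly adherent tumours, FERMT1 and PDLIM3 were higher in all 4 pairs (5.88% of members, 5.17% of all genes), and BCAR1 and SORBS3 lower in all 4 (5.88% of members, 6.16% of all genes). Without number 6, 8 members were higher in the 3 remaining pairs (23.5%, beside 12.3% of all genes) and 4 lower (11.8%, beside 13.5%). Without strongly adherent library 5 there were 2 each way (5.88%, beside 9.69% and 12.6% of all genes). For weakly adherent against unsorted tumours, no member was higher in all 5 pairs (1.38% of all genes were) and only ZYX was lower in all 5 (2.94% of members, 1.52% of all genes). The log2 difference of ZYX in number 4 was only -0.00564. Without number 6, 3 members were higher in all 4 remaining pairs (8.82%, beside 9.57%) and 3 lower (8.82%, beside 7.38%). For strongly adherent against unsorted tumours 4 were then higher in all 3 (11.8%, beside 21.7%).

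**Figure D2:**
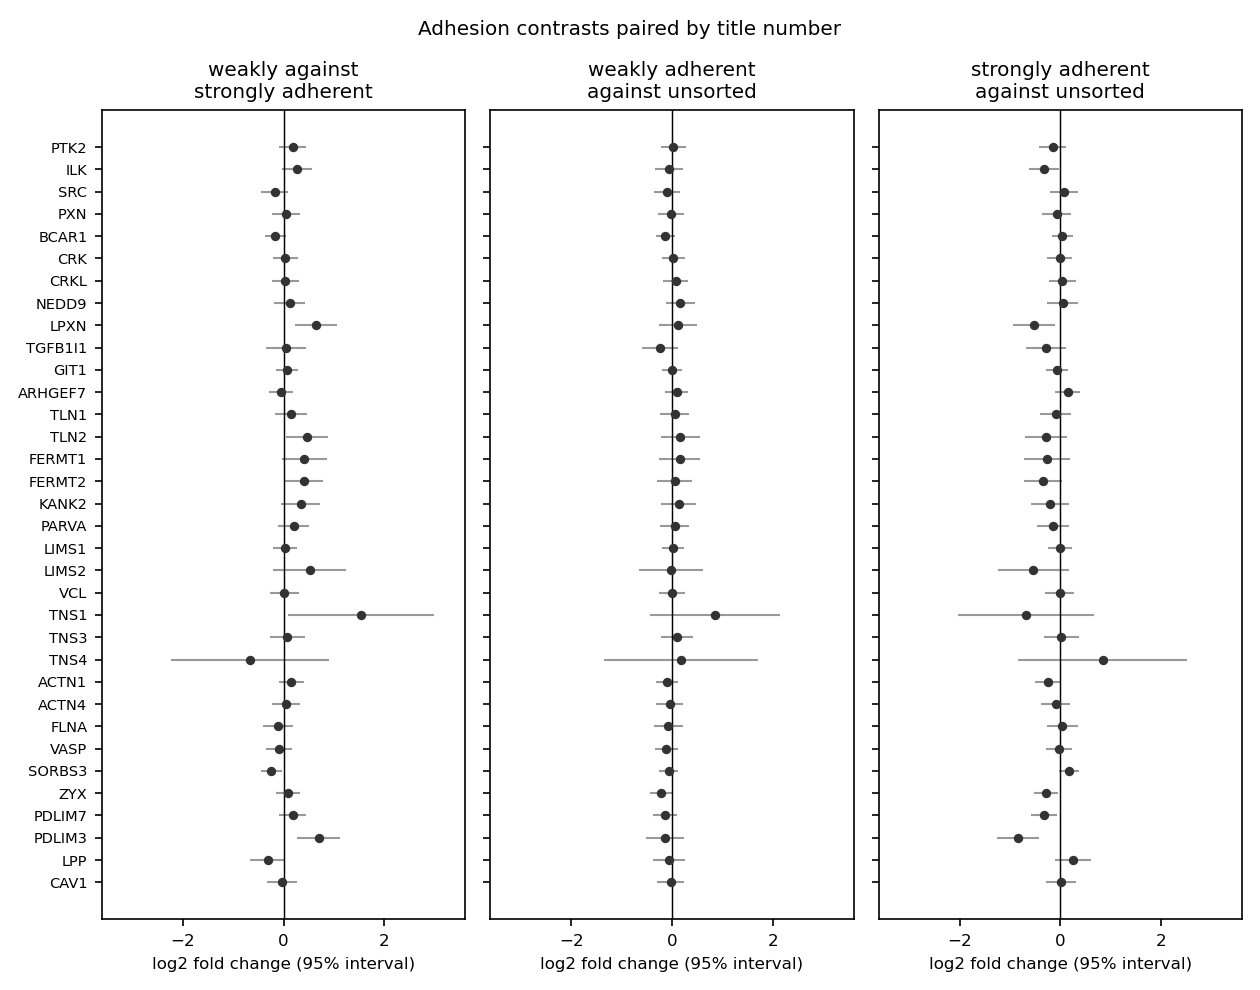
Log2 fold change of the 34 tested members in the 3 adhesion contrasts paired by title number, with 95% intervals. Points right of the line are higher in the group named first. No member passed an adjusted p of 0.05 in any panel. The widest intervals belong to TNS1 and TNS4.

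Neither PTK2 nor SRC passed the test in a contrast of adhesion groups. PTK2, which encodes focal adhesion kinase, averaged 221 ± 26.4 CPM in weakly adherent, 203 ± 13.2 CPM in strongly adherent and 226 ± 35.1 CPM in unsorted tumours (SD, n = 6, 4 and 5). Its log2 fold change was 0.18 ± 0.13 (SE; 95% interval -0.10 to 0.45; adjusted p = 0.765) for weakly against strongly adherent, 0.02 ± 0.12 (-0.23 to 0.28; adjusted p = 0.9997) for weakly adherent against unsorted and -0.15 ± 0.13 (-0.43 to 0.12; adjusted p = 0.735) for strongly adherent against unsorted tumours. SRC, the membrane-bound tyrosine kinase that works with FAK, averaged 85.1 ± 11.4 CPM in weakly adherent, 99.9 ± 35.2 CPM in strongly adherent and 92.3 ± 13.6 CPM in unsorted tumours. Its largest fold change was -0.18 ± 0.13, for weakly against strongly adherent tumours (adjusted p = 0.766).

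ILK, integrin-linked kinase, is a pseudokinase that binds PINCH and parvin. It had 199.8, 149, 245 and 241 CPM in the strongly adherent libraries 4, 5, 6 and 9, against 223, 280.1, 285, 214 and 271 CPM in the unsorted libraries 4, 5, 6, 7-8 and 9. Every strongly adherent library was below the unsorted library of its number, although the groups overlap. The log2 fold change was -0.32 ± 0.14 (95% interval -0.62 to -0.02; adjusted p = 0.589), and without strongly adherent library 5 it was -0.16. Of its partners, LIMS2 (the second PINCH protein) followed the same order in the 4 pairs with a fold change of -0.54 ± 0.32, and PARVA (alpha-parvin, which ties ILK to actin) with -0.15 ± 0.14. For LIMS2 the pair of number 5 gave -2.05 and the others -0.44 to -0.155, and without strongly adherent library 5 its fold change was -0.16. LIMS2 ranged between 5.15 and 29.2 CPM over the 15 libraries and PARVA between 109.5 and 205 CPM. LIMS1, the main PINCH, stayed between 61.1 and 98.9 CPM in all 15 libraries, and a near-identical copy, LIMS3, makes its counts uncertain. PARVB, the other parvin, was near absent, with 0 to 6 counts a library and 0 in 5 libraries, where 3 counts, the limit that a 0 allows, would be 0.0763 to 0.0934 CPM.

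Among the scaffolds that carry the kinases, LPXN had the smallest p. LPXN, leupaxin, a paxillin relative best known from blood cells and invasive carcinoma lines, had 38.8, 44.4 and 50.4 CPM as its lowest, median and highest values in weakly adherent tumours. In strongly adherent libraries 4, 5, 6 and 9 it had 29.97, 25.6, 16.6 and 43.6 CPM, and in unsorted libraries 4, 5, 6, 7-8 and 9 it had 31.8, 44.3, 39.9, 42.1 and 46.3 CPM. Strongly adherent libraries 4, 5 and 6 lay below all 11 others, and library 9 lay among them. The log2 fold change was 0.65 ± 0.19 (0.24 to 1.06; adjusted p = 0.698) for weakly against strongly adherent and -0.53 ± 0.19 (-0.94 to -0.12; adjusted p = 0.566) for strongly adherent against unsorted tumours. Without number 6 these were 0.44 and -0.32, and without number 6 and strongly adherent library 5 they were 0.21 and -0.09, so the size rests on those libraries.

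PXN, paxillin itself, averaged 458 ± 46.6 CPM in weakly adherent, 464 ± 54.0 CPM in strongly adherent and 484 ± 88.3 CPM in unsorted tumours. Its log2 fold changes were 0.05 ± 0.13 (-0.24 to 0.33; adjusted p = 0.948) for weakly against strongly adherent, -0.02 ± 0.12 (-0.29 to 0.24; adjusted p = 0.9997) for weakly adherent against unsorted, and -0.07 ± 0.13 (-0.36 to 0.21; adjusted p = 0.882) for strongly adherent against unsorted tumours. BCAR1, which encodes p130Cas, a stretch-sensitive Src substrate, was lower in weakly than in strongly adherent tumours in 4 of 4 pairs, by small steps, and its fold change was -0.17 ± 0.10 (adjusted p = 0.745). Against unsorted tumours BCAR1 stood at -0.13 ± 0.09 in weakly adherent tumours (-0.32 to 0.06; adjusted p = 0.9997). TGFB1I1, the paxillin relative Hic-5, had 79.9 CPM as its median in weakly adherent tumours, with 75.7 and 89.4 CPM as extremes. In unsorted libraries 4, 5, 6, 7-8 and 9 it had 85.3, 115, 91.5, 82.6 and 94.9 CPM, and the fold change was -0.24 ± 0.17 (-0.60 to 0.12; adjusted p = 0.9997). The other scaffolds (CRK, CRKL, NEDD9, GIT1 and ARHGEF7, which couple paxillin and p130Cas to small GTPases) had fold changes between -0.07 and 0.17 in the 3 contrasts. Over the 15 libraries CRK ranged between 81.3 and 137 CPM, CRKL between 55.7 and 92.4 CPM, NEDD9 between 49.0 and 114 CPM, GIT1 between 74.9 and 104 CPM, and ARHGEF7 between 25.2 and 37.2 CPM.

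The fitted fold changes of the integrin activators leaned the same way without passing the test. All 5 members of the group (TLN1, TLN2, FERMT1, FERMT2 and KANK2) had a positive fold change in weakly against strongly adherent tumours, with a median of 0.40, and all 5 a negative one in strongly adherent against unsorted tumours, with a median of -0.26. Both contrasts use the same strongly adherent libraries, and the single pairs were less even. For weakly against strongly adherent tumours only FERMT1 of the 5 was higher in all 4 pairs, and TLN1 and KANK2 were each higher in 2 and lower in 2. For strongly adherent against unsorted tumours only FERMT2 was lower in all 4. Without number 6, FERMT1 stood at 0.02 and TLN2 at -0.04 for strongly adherent against unsorted tumours. TLN2, the second talin, had a lowest, median and highest of 19.0, 27.9 and 32.9 CPM in weakly adherent tumours, against 17.7, 22.8, 11.9 and 33.98 CPM in strongly adherent libraries 4, 5, 6 and 9. The groups overlap, with strongly adherent library 9 the highest of all. For TLN2 the log2 fold change was 0.46 ± 0.19 (0.04 to 0.87; adjusted p = 0.698). TLN1, the main talin, averaged 456 ± 78.9 CPM in weakly adherent, 446 ± 99.8 CPM in strongly adherent and 472 ± 93.3 CPM in unsorted tumours, and its fold changes were 0.15 ± 0.15 (-0.17 to 0.46; adjusted p = 0.831), 0.05 ± 0.13 (-0.24 to 0.34; adjusted p = 0.9997) and -0.09 ± 0.14 (-0.40 to 0.22; adjusted p = 0.858) for weakly against strongly adherent, weakly adherent against unsorted and strongly adherent against unsorted tumours. FERMT1 (kindlin-1) and FERMT2 (kindlin-2) had 0.41 ± 0.21 and 0.40 ± 0.18 for weakly against strongly adherent tumours. FERMT1 ranged between 73.5 and 229.9 CPM over the 15 libraries and FERMT2 between 47.1 and 157 CPM. In FERMT2 the pair of number 5 gave 1.09 and that of number 6 gave -0.16, and without strongly adherent library 5 the fold change was 0.19.

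Proteins that link to and cross-link actin showed no shared direction. VCL, vinculin, averaged 327 ± 54.1 CPM in weakly adherent, 336 ± 61.4 CPM in strongly adherent and 332 ± 14.0 CPM in unsorted tumours, with fold changes of 0.02 ± 0.13 (-0.26 to 0.30; adjusted p = 0.98), 0.0027 ± 0.12 (-0.26 to 0.26; adjusted p = 0.9997) and -0.02 ± 0.13 (-0.30 to 0.27; adjusted p = 0.977) in the 3 contrasts in the order just used. SORBS3, vinexin, which binds vinculin, had differences of similar size in its 4 pairs. It had 77.7, 75.0, 61.0 and 64.9 CPM in weakly adherent libraries 4, 5, 6 and 9, against 92.8, 84.96, 73.7 and 74.6 CPM in the strongly adherent libraries of the same numbers. The weakly adherent library was the lower of each pair, with log2 differences of -0.27 to -0.18, while the groups overlap. The fold change was -0.24 ± 0.09 (-0.44 to -0.04; adjusted p = 0.698).

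TNS1, tensin-1, an actin-capping integrin linker, varied widely within groups. Its lowest, median and highest values were 1.99, 8.38 and 17.6 CPM in weakly adherent tumours. It had 1.85, 1.43, 21.8 and 3.77 CPM in strongly adherent libraries 4, 5, 6 and 9, and in unsorted libraries 4, 5, 6, 7-8 and 9 it had 2.37, 3.06, 30.6, 5.18 and 7.82 CPM. Library 6 was the highest of the strongly adherent and of the unsorted libraries, and the 3 groups overlap. The fold change was 1.53 ± 0.64 (0.08 to 2.99; adjusted p = 0.714) for weakly against strongly adherent and 0.85 ± 0.57 (-0.44 to 2.13; adjusted p = 0.9997) for weakly adherent against unsorted tumours. Weakly adherent library 5 carried much of both: without it they were 0.87 and 0.21. Without number 6 they were 2.14 and 1.25. The rest of this group (TNS3, TNS4, ACTN1, ACTN4, FLNA and VASP) gave fold changes between -0.66 and 0.84, with TNS4 at both ends, and ACTN1, alpha-actinin-1, at -0.25 ± 0.11 for strongly adherent against unsorted tumours (adjusted p = 0.595). Without number 6 and strongly adherent library 5, TNS4 stood at -0.15 and ACTN1 at -0.15 for strongly adherent against unsorted tumours, where TNS4 had 0.84 and ACTN1 -0.25 with all libraries. Over the 15 libraries TNS3 ranged between 85.8 and 191 CPM, TNS4 between 6.11 and 476 CPM, ACTN1 between 386 and 624 CPM, ACTN4, the other alpha-actinin, between 918 and 1504 CPM, the cross-linker FLNA (filamin A) between 1789 and 3247 CPM, and VASP between 167 and 287 CPM.

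PDLIM3, of the LIM domain proteins of the zyxin and PDLIM families, had the smallest p of all members in 2 of the 3 contrasts. Its lowest, median and highest values in weakly adherent tumours were 7.27, 7.55 and 8.14 CPM. It had 4.68, 4.54, 3.88 and 6.6 CPM in strongly adherent libraries 4, 5, 6 and 9, and in unsorted libraries 4, 5, 6, 7-8 and 9 it had 8.41, 8.4, 11.3, 6.45 and 7.86 CPM. All 4 strongly adherent libraries lay below all 6 weakly adherent ones, and they overlap the unsorted ones only in strongly adherent library 9 and unsorted library 7-8. The log2 fold change was -0.84 ± 0.19 (-1.26 to -0.42; adjusted p = 0.561) for strongly adherent against unsorted and 0.70 ± 0.19 (0.27 to 1.12; adjusted p = 0.69) for weakly against strongly adherent tumours. DESeq2 with the title number gave an adjusted p of 0.0301 and 0.132 for the same contrasts. Without number 6 the edgeR values were -0.63 and 0.59, and without number 6 and strongly adherent library 5 they were -0.53 and 0.49, with an adjusted p of 0.999 for both in the smaller set. The muscle marker sums were high in number 6 and strongly adherent library 5, and the part of muscle RNA in PDLIM3 was not tested.

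ZYX, zyxin, and PDLIM7, enigma, had the next smallest p-values among these proteins. In weakly adherent tumours the lowest, median and highest values of ZYX were 168 (library 6), 195.5 and 228 CPM. It had 218, 172, 144 and 197 CPM in strongly adherent libraries 4, 5, 6 and 9, against 229, 265, 182, 227 and 224 CPM in unsorted libraries 4, 5, 6, 7-8 and 9. Both sheared groups were below the unsorted library in every pair, while the groups overlap. In number 4 the weakly adherent library was lower by a log2 difference of only -0.00564. The log2 fold change was -0.29 ± 0.11 (-0.53 to -0.06; adjusted p = 0.573) for strongly adherent against unsorted and -0.22 ± 0.10 (-0.43 to 0.0026; adjusted p = 0.9997) for weakly adherent against unsorted tumours, 2 contrasts that share the unsorted libraries. Without number 6 and strongly adherent library 5 the value for ZYX in strongly adherent against unsorted tumours was -0.19. PDLIM7 averaged 307 ± 39.1 CPM in strongly adherent and 377 ± 42.2 CPM in unsorted tumours, with a fold change of -0.32 ± 0.12 (-0.58 to -0.06; adjusted p = 0.573). In weakly adherent tumours PDLIM7 averaged 349 ± 29.0 CPM, with -0.14 ± 0.11 against unsorted tumours (-0.38 to 0.10; adjusted p = 0.9997). LPP, the lipoma preferred partner and a zyxin relative, ran the other way, with 71.5 ± 3.72 CPM in strongly adherent and 59.9 ± 10.99 CPM in unsorted tumours and a fold change of 0.26 ± 0.16 (adjusted p = 0.673), and 0.13 without strongly adherent library 5. CAV1, the coat protein of caveolae, had fold changes between -0.03 and 0.01 in the 3 contrasts and ranged between 544 and 857 CPM.

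**Figure D3:**
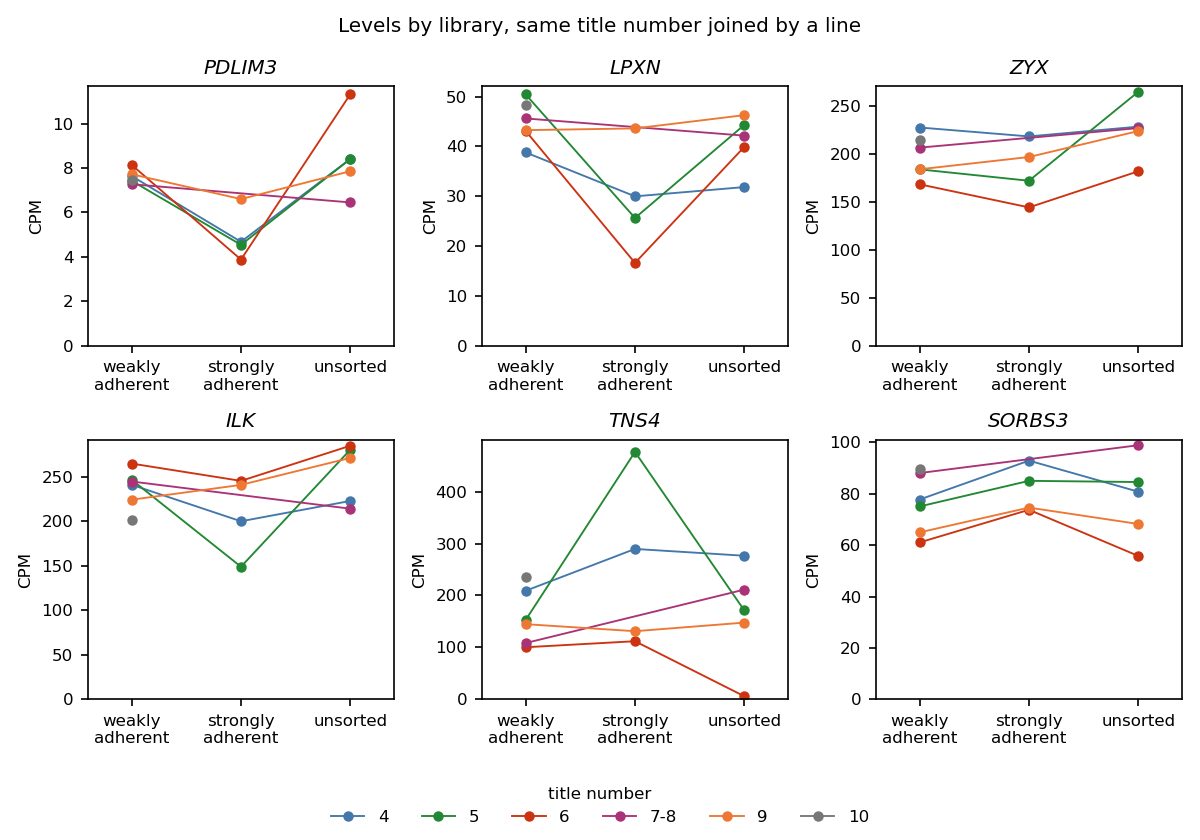
CPM of 6 members in each library, with libraries of the same title number joined by a line. Columns are the adhesion groups and each axis starts at 0. Number 7-8 has no strongly adherent library, so its line passes through without a point, and number 10 is a single point. PDLIM3 dips in the strongly adherent library of all 4 numbers that have one, from 3.88 to 6.6 CPM. SORBS3 is lowest in numbers 6 and 9 in each group, and TNS4 falls to 6.11 CPM in unsorted library 6.

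In most members title number took a larger share of the spread than adhesion group did. After adhesion group, number (5 terms) took a median of 50.2% of a member's sum of squares in log2 CPM. Adhesion group (2 terms) after number took 12%. A factor with more terms takes a larger share of noise as well, so the 2 shares are not on an equal footing. Over all genes tested the shares were 51.4% and 8.05%. The median SD over the 15 libraries was 0.234 (log2) for members, 0.231 for genes in the same range of mean CPM and 0.287 for all genes, and without number 6 these were 0.208, 0.2 and 0.249. GIT1 was the steadiest, with 1.39-fold between its highest and lowest library. Adhesion group took the larger share in 5 members (PDLIM3, PDLIM7, LPXN, TGFB1I1 and ILK), and in PDLIM3 it took 74.9% while number took 7.92%.

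A test for any difference between title numbers passed 2 of 34 members, BCAR1 and SORBS3 (5.88%), beside 7.9% of all genes (1200 genes). Number took 84.7% of the sum of squares of BCAR1 (adjusted p = 0.046) and 89.2% of that of SORBS3 (adjusted p = 0.0343). With single libraries left out, 3 members passed when weakly adherent library 10 was dropped (8.82%, beside 9.25% of all genes). The count was 2 without strongly adherent library 5 (5.88%, beside 10.6%) or weakly adherent library 6 (5.88%, beside 10%). It was 1 without weakly adherent library 5 (2.94%, beside 7.78%). For each of the other 11 it was 0, beside 2.52% to 7.17% of all genes. Without the 3 libraries of number 6 none passed, beside 0.0197% of all genes (3 genes). The levels of SORBS3 show the pattern: number 7-8 had 88.0 CPM in its weakly adherent and 98.8 CPM in its unsorted library, number 6 had 61.0, 73.7 and 55.8 CPM in its weakly adherent, strongly adherent and unsorted libraries, and number 9 had 64.9, 74.6 and 68.2 CPM. In each adhesion group the libraries of numbers 6 and 9 were the lowest for SORBS3.

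Number 6 against the mean of the other 5 numbers, adjusted for adhesion group, was chosen because earlier results of these data had shown these libraries to stand apart. The contrast passed 11 of 34 members (32.4%), beside 27.9% of all genes (4242 genes). Of the members, 5 were higher in number 6 (14.7%, beside 11.6% of all genes) and 6 were lower (17.6%, beside 16.4%). The members' share was thus near the background, and their median log2 fold change was 0.01, as over all genes. What follows describes which members they were. Without strongly adherent library 6 the count was 3 members (8.82%, beside 12.9% of all genes), without strongly adherent library 4 it was 7 (20.6%, beside 21.4%), and without weakly adherent library 6 it was 14 (41.2%, beside 27.9%).

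Higher in number 6 were TNS1, FERMT2, KANK2, TLN1 and CRKL. TNS1 had 11.8, 21.8 and 30.6 CPM in its weakly adherent, strongly adherent and unsorted libraries, against a lowest, median and highest of 1.43, 4.47 and 17.6 CPM in the other 12. The ranges overlap through weakly adherent library 5. The log2 fold change was 2.77 ± 0.57 (1.48 to 4.06; adjusted p = 0.00802), and it stayed past the threshold whichever library was left out (adjusted p up to 0.0496). TNS1 is abundant in muscle, and the muscle marker sums given above are higher in number 6 and in strongly adherent library 5 than in the other 11 libraries. Strongly adherent library 5, with the highest muscle sum (2981 CPM), had the lowest TNS1 of the 15 libraries (1.43 CPM). The part of muscle RNA in TNS1 was not tested.

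FERMT2 had 126, 141 and 157 CPM in number 6, against 47.1, 100.5 and 119 CPM as lowest, median and highest of the other 12, with no overlap. Its log2 fold change was 0.71 ± 0.17 (0.35 to 1.07; adjusted p = 0.00838). KANK2, which binds talin and steers microtubules to adhesions, averaged 204 ± 28.4 CPM in number 6 and 147 ± 31.0 CPM in the others, with 0.60 ± 0.17 (0.24 to 0.97; adjusted p = 0.0192). TLN1 averaged 559 ± 84.3 CPM in number 6 and 433 ± 64.2 CPM in the others, with 0.45 ± 0.14 (0.15 to 0.75; adjusted p = 0.0299). CRKL, the adaptor between p130Cas and Rap1 activators, averaged 84.95 ± 11.9 CPM and 69.2 ± 7.58 CPM, with 0.35 ± 0.12 (0.09 to 0.61; adjusted p = 0.0427). For KANK2, TLN1 and CRKL the ranges of number 6 and of the other libraries overlap. LIMS2 lay higher in all 3 libraries of number 6 (25.3 to 29.2 CPM) than in the other 12 (5.15 to 25.1 CPM) but did not pass (0.81 ± 0.30, adjusted p = 0.0633).

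Lower in number 6 were SRC, BCAR1, VASP, SORBS3, NEDD9 and ZYX. SRC had 71.9, 62.3 and 72.0 CPM in the weakly adherent, strongly adherent and unsorted libraries of number 6, against 78.6, 94.2 and 145 CPM as lowest, median and highest of the other 12, and the ranges do not overlap. The log2 fold change was -0.47 ± 0.12 (-0.74 to -0.20; adjusted p = 0.0164). BCAR1 had 93.8, 101 and 95.9 CPM in number 6, against 104, 127.5 and 154 CPM in the others, again without overlap, and -0.44 ± 0.10 (-0.65 to -0.24; adjusted p = 0.00568). VASP, which elongates actin filaments at adhesions, had 182, 167 and 188 CPM in number 6, against 202, 231 and 287 CPM, also apart, and -0.45 ± 0.11 (-0.69 to -0.20; adjusted p = 0.0134).

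In SORBS3, NEDD9 and ZYX the ranges of number 6 and of the other libraries overlap. SORBS3 averaged 63.5 ± 9.22 CPM in number 6 and 81.7 ± 10.1 CPM in the others, with -0.43 ± 0.09 (-0.63 to -0.23; adjusted p = 0.00569). NEDD9, a p130Cas relative linked to breast cancer metastasis, averaged 66.2 ± 15.04 CPM and 92.4 ± 13.3 CPM, with -0.41 ± 0.14 (-0.72 to -0.11; adjusted p = 0.0451). ZYX averaged 165 ± 19.1 CPM and 213 ± 25.5 CPM, with -0.37 ± 0.11 (-0.60 to -0.13; adjusted p = 0.0252). In all, 2 members lay above all others in number 6 (FERMT2 and LIMS2; 5.88%, beside 5.63% of all genes) and 3 below (BCAR1, SRC and VASP; 8.82%, beside 10.4% of all genes).

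These calls differ in how far they depend on a single library. BCAR1, SORBS3 and TNS1 stayed past the threshold whichever library was left out. SRC, VASP and FERMT2 lost the call only without strongly adherent library 6 (adjusted p of 0.114, 0.0858 and 0.0715). KANK2 lost it without weakly adherent library 10, strongly adherent library 6 or unsorted library 6 (0.0504, 0.125 and 0.086), and ZYX without strongly adherent library 4 or 6 or unsorted library 6 (0.0516, 0.116 and 0.0919). TLN1 lost it without weakly adherent library 10, strongly adherent library 4 or 6, or unsorted library 6 or 7-8 (0.075, 0.0583, 0.149, 0.127 and 0.0627). The weakest calls were NEDD9, kept only without weakly adherent library 7-8 or 10 or unsorted library 4, 5 or 6, and CRKL, kept only without weakly adherent library 4 or 6 or strongly adherent library 5 or 9. Their adjusted p reached 0.271 and 0.189. PTK2, PXN and VCL did not pass. PTK2 stood at 0.17 ± 0.12 (-0.10 to 0.43; adjusted p = 0.323), PXN at 0.22 ± 0.13 (-0.05 to 0.50; adjusted p = 0.208) and VCL at -0.17 ± 0.13 (-0.44 to 0.11; adjusted p = 0.351).

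**Figure D4:**
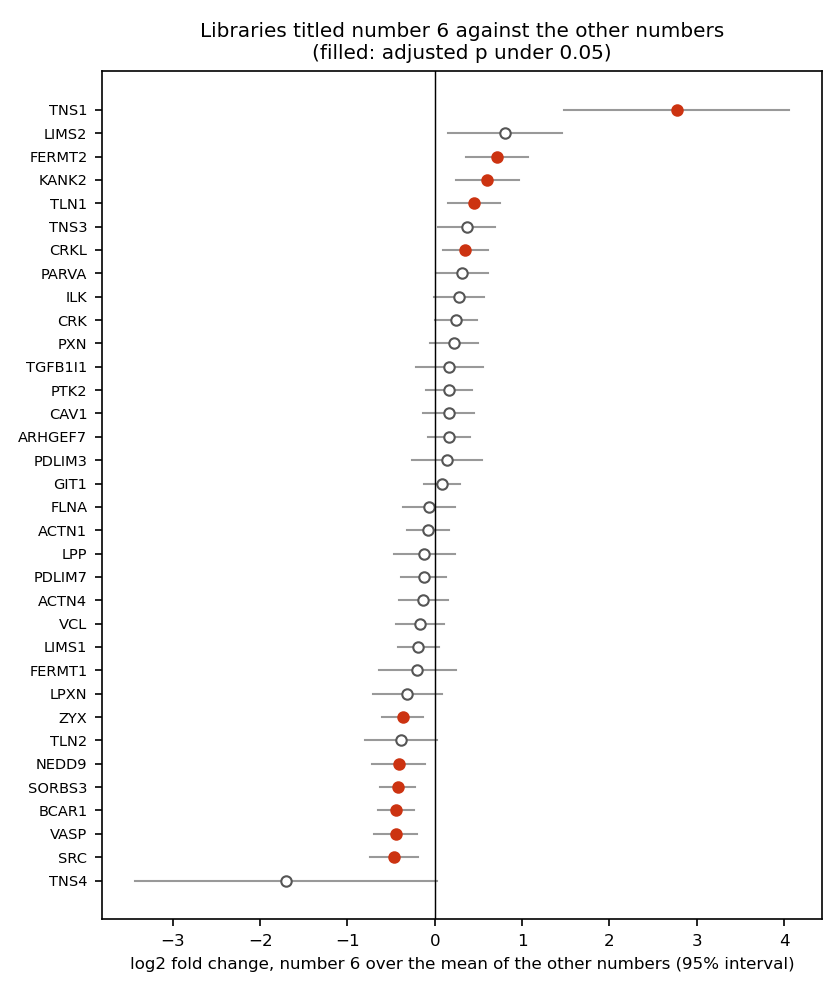
Log2 fold change of the 34 tested members in number 6 over the mean of the other numbers, adjusted for adhesion group, with 95% intervals and genes ordered by value. Filled points passed an adjusted p of 0.05. They are 5 members on the right, from CRKL at 0.35 to TNS1 at 2.77, and 6 on the left, from ZYX at -0.37 to SRC at -0.47. TNS4, at -1.71, has an interval from -3.44 to 0.02.

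Close relatives within the list were set against each other by the log2 ratio of their CPM in each library. Since the values are not per length, only the change of a ratio between libraries is read. Of 10 pairs, 4 (40%) had ratios in number 6 outside the range of the other 12 libraries. The same held for 17.7% of all 115360455 pairs of tested genes and for 15.9% of the 561 pairs of members. The 10 pairs were chosen with earlier results known and are too few for more than a description. FERMT1 over FERMT2 had -0.10, -0.94 and 0.07 in the weakly adherent, strongly adherent and unsorted libraries of number 6, against 0.17 to 1.88 in the others, a shift of the mean by -0.996 on the log2 scale. TLN2 over TLN1 was at -5.59 to -4.62 in number 6, against -4.43 to -3.65, a shift of -0.88. LIMS2 over LIMS1 was at -1.48 to -1.27 in number 6, against -3.94 to -1.61, a shift of 0.94. TNS4 over TNS3 was at -0.33, -0.58 and -4.97 in the weakly adherent, strongly adherent and unsorted libraries of number 6, against -0.20 to 1.65. The shift was -2.49, and most of it came from unsorted library 6.

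TNS4, the short tensin also called cten, lacks the actin-binding part of TNS3 and is known to displace it from integrins in epithelial cells. It had 100.4, 112 and 6.11 CPM in the weakly adherent, strongly adherent and unsorted libraries of number 6 and 108 to 476 CPM in the other 12, with a log2 fold change of -1.71 ± 0.75 (adjusted p = 0.127). The range in number 6 overlaps that of the others only by strongly adherent library 6. Epithelial markers were also lower in number 6: the sum of the 12 listed was 1829 to 2368 CPM in number 6 and 3209 to 7781 CPM in the others, and 11 of the 12 passed as lower. The part of this in the ratios was not tested. The other 6 pairs (ACTN4 over ACTN1, CRKL over CRK, LPXN over PXN, NEDD9 over BCAR1, PDLIM3 over PDLIM7 and LPP over ZYX) overlapped. Between adhesion groups no ratio was tested, and LPXN over PXN averaged -3.35 ± 0.24 in weakly adherent, -4.08 ± 0.60 in strongly adherent and -3.56 ± 0.27 in unsorted tumours (SD, n = 6, 4 and 5).

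**Figure D5:**
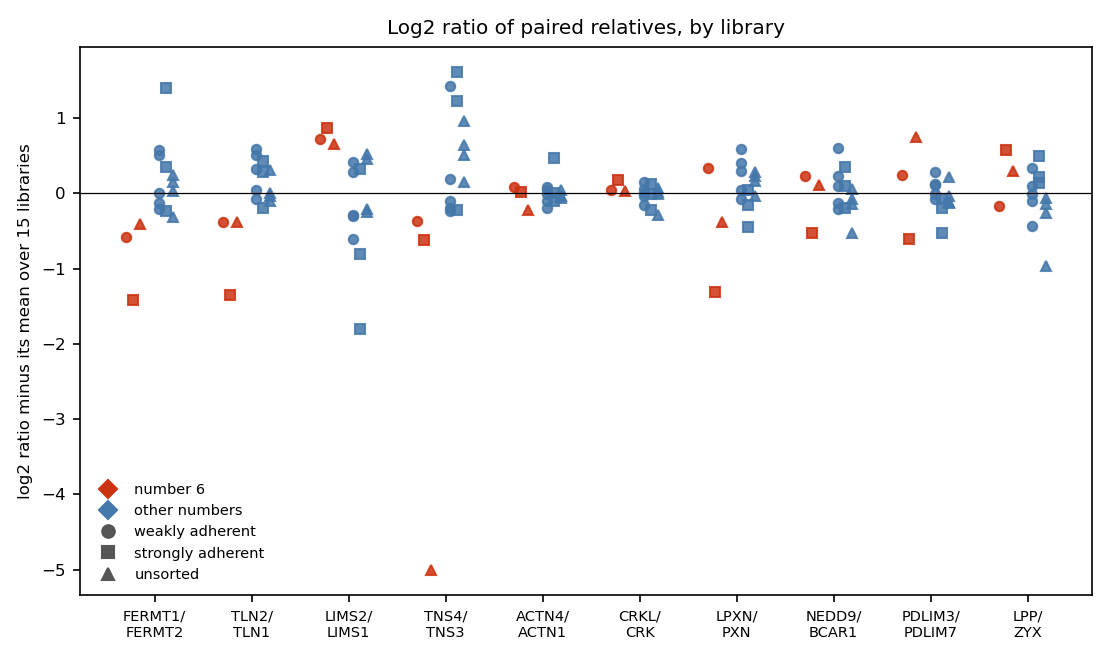
Log2 ratio of 10 pairs of related members in each library, minus the mean of that ratio over the 15 libraries. Red marks number 6 and blue the other numbers, and the shape gives the adhesion group. FERMT1/FERMT2, TLN2/TLN1 and TNS4/TNS3 lie lower in the 3 libraries of number 6 than in all 12 others, and LIMS2/LIMS1 lies higher.

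A wider list of 65 other focal adhesion genes gave the frame for these values, with 61 tested. No gene of it passed in an adhesion contrast, beside 0% of all genes. At an unadjusted p under 0.05 there were 3 (4.92%, beside 6.78% of all genes) for weakly against strongly adherent tumours. There were 0 (beside 1.13%) for weakly adherent and 6 (9.84%, beside 8.26%) for strongly adherent against unsorted tumours. In every strongly adherent library 7 (11.5%, beside 9.03%) were lower than in its unsorted partner. Between title numbers 5 passed (8.2%, beside 7.9% of all genes), EFS, ELMO1, ENAH and FERMT3 among them. In number 6 against the other numbers 26 passed (42.6%, beside 27.9% of all genes). Of these, 13 were higher (21.3%, beside 11.6%) and 13 lower (21.3%, beside 16.4%). The largest fold changes among the higher ones were those of ACTN2 (8.76 ± 1.96), KANK3 (1.27 ± 0.35), FHL1 (1.23 ± 0.25) and FERMT3 (1.18 ± 0.23). KANK3 had 3.38, 15.35 and 3.87 CPM in the weakly adherent, strongly adherent and unsorted libraries of number 6. It had 2.59 CPM in strongly adherent library 5 and 1.8 to 3.33 CPM in the other 11. The size for KANK3 thus rests mostly on strongly adherent library 6. ACTN2 is the alpha-actinin of striated muscle and FHL1 is abundant there. The muscle marker sums were high in number 6 and strongly adherent library 5, as given above. Of the 17 muscle markers tested, 7 passed as higher in number 6 and 1, MB, as lower, and the rest did not pass. The part of muscle RNA in ACTN2 and FHL1 was not tested. FERMT3 is the kindlin of blood cells, and the 12 leukocyte markers summed to 204 to 358 CPM in number 6 and to 133 to 192 CPM in the others, with TYROBP at 0 in all libraries. That sum was mostly CD68 and LAPTM5, which passed as higher in number 6 (111 to 193 and 64.6 to 153 CPM there, against 53.2 to 110 and 44.0 to 70.3 CPM elsewhere). PTPRC, which encodes the pan-leukocyte protein CD45, passed as lower, with 0.107 to 0.399 CPM in number 6, against 0.584 to 1.83 CPM elsewhere, and so did CSF1R. The other 2 leukocyte markers tested did not pass, and the part of blood cells in FERMT3 was not tested. Among the lowest were EFS (-5.64 ± 1.002), a p130Cas relative, ELMO1 (-2.15 ± 0.36), a partner of the Rac activator DOCK1, and PTK2B (-1.19 ± 0.32), which encodes the FAK relative Pyk2. EFS averaged 0.029 ± 0.031 CPM in number 6 and 1.45 ± 0.90 CPM in the other 12. It had 2, 1 and 0 counts in the weakly adherent, strongly adherent and unsorted libraries of number 6, and no bound is drawn from its fitted fold change. ACTN2 had 3.9, 5.7 and 29.4 CPM in number 6 in the same order. Of the other 12 libraries, strongly adherent library 5 had 24.8 CPM and the other 11 had 0 to 0.109 CPM. Without strongly adherent library 5 the log2 fold change of ACTN2 was 9.18 ± 0.507, and without strongly adherent library 9 it no longer passed (adjusted p = 0.0526).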

How the data were processed

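A stranded TruSeq kit and single reads of 50 bp were used, per the labels' protocols. The submitters' processing notes name STAR, HTSeq, cutadapt, FastQC and DESeq2 and build hg19, without versions. The strand setting of the counting is not stated there, so antisense reads cannot be told apart, and mouse reads that align to human genes may be among the counts. The authors deposited raw counts per gene, used for all main tests, and log2 values equal to log2 of count over size factor plus 1 (to within 5.15e-14), used for limma-trend.

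Counts were tested with edgeR 4.0.16 in R 4.3.3 (TMM, filterByExpr by group, robust quasi-likelihood fit of adhesion group and title number, two-sided, Benjamini-Hochberg over 15190 genes, threshold 0.05). Standard errors are the absolute log2 fold change over the square root of F, and 95% intervals use the t distribution. CPM are TMM-scaled, and ± on CPM is SD. Limits from a 0 were set at 3 counts and cover counting error only.

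The members, the other lists, the number 6 contrast and the rule for named genes were chosen with earlier results of these data known. Statistics in full go to the 5 members of smallest p in an adhesion contrast, to those passed in the number 6 contrast, to PTK2, PXN, TLN1 and VCL, and, of the other focal adhesion genes passed, to the 4 highest and 4 lowest. One of these is not reported here. LIMS2, TNS4, LPP and a few others were chosen after their values were seen. Alternatives were other scalings and filters, DESeq2 1.42.0, limma 3.58.1 (voom and trend), no number in the model, the 2 groups alone, and libraries left out. The counts of pairs without number 6 or strongly adherent library 5, and the ratios of all pairs of genes (log2 CPM with a prior count of 2), were added after seeing the data.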

Additional observations from a re-analysis of the deposited data

Results flagged for a closer look

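Of 102 tests of a member within an adhesion group, 7 found a library far from the rest of its group. Chance alone would give 1 in 20 if the tests were independent, but the members share the same libraries. No share over all genes is set beside the count, so it is not judged against chance. Unsorted library 6 held 5 of the 7. Its PTK2 level was 288 CPM, against 202 to 219 CPM in the other unsorted libraries. Its TLN1 level was 635 CPM, against 397 to 448 CPM. PARVA stood at 205 CPM there, against 141 to 152 CPM, and ARHGEF7 at 34.6 CPM, against 29.0 to 30.3 CPM. TNS4 was far below its group, with 6.11 CPM against 148 to 276 CPM. Weakly adherent library 10 held the other 2, both low: CRK at 81.3 CPM, against 105 to 121 CPM, and CRKL at 55.7 CPM, against 71.2 to 80.8 CPM in the other weakly adherent libraries. Strongly adherent library 5 held none. Whether these libraries stand apart beyond chance was not tested.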

How the results depend on the processing

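The deviations of libraries with the same number correlated at 0.0164 to 0.767 for weakly against strongly adherent, 0.0328 to 0.683 for weakly adherent against unsorted and 0.28 to 0.75 for strongly adherent against unsorted tumours. In each contrast the highest value was that of number 6. The other numbers reached at most 0.248, 0.258 and 0.525, in the same order. Number 5 in the first and number 4 in the second fell under 0.1, so there the libraries may share only a number. With no replicate block, 0 genes were called in each adhesion contrast, as in the paired fit. Unpaired, PXN (-0.0188) and VCL (-0.0377) turned for weakly against strongly adherent, TNS1 (-0.115), PTK2 (-0.0337), TLN1 (-0.0507) and VCL (-0.0203) for weakly adherent against unsorted, and VCL (0.0174) for strongly adherent against unsorted tumours.

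DESeq2 called 30 genes for weakly against strongly adherent and 23 genes with 1 member for strongly adherent against unsorted tumours. For any difference between numbers it called 3344 genes (22%) and 5 members (14.7%). In that test size factors in edgeR called 1 member (2.94%, beside 7.81% of all genes), and no filter called 0 (beside 5.63%). Without number 6 that test called 3 genes and 0 members, and also without strongly adherent library 5 it called 54 genes and 0 members. VCL for weakly adherent against unsorted tumours was -0.00146 with size factors, -0.00143 with DESeq2 and -0.00113 with limma-trend. Without number 6, PXN turned to 0.12 for weakly adherent and VCL to 0.0468 for strongly adherent against unsorted tumours, and also without strongly adherent library 5, PXN gave 0.12 and 0.00489 in those contrasts. CRKL left the number 6 calls with upper-quartile scaling (adjusted p = 0.0565), no filter (0.0502) and voom (0.0503), and NEDD9 with size factors (0.0542) and no filter (0.0564).

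With single libraries left out, strongly adherent against unsorted tumours gave 0 to 4 genes (4 without strongly adherent library 9), any difference between numbers 386 to 1621 genes and 0 to 3 members, and number 6 against the rest 1981 to 4231 genes and 3 to 14 members. PXN ranged over -0.0397 to 0.164 and VCL over -0.0661 to 0.155 for weakly against strongly adherent. For weakly adherent against unsorted, PTK2 ranged over -0.0354 to 0.129, PXN over -0.101 to 0.0861, TLN1 over -0.0465 to 0.163 and VCL over -0.0751 to 0.0743. For strongly adherent against unsorted, PXN ranged over -0.131 to 0.0405 and VCL over -0.15 to 0.0589. PTK2 in number 6 ranged over -0.00554 to 0.339. The number 6 contrast gives no value without its libraries. PARVB, with 26 counts over the 15 libraries, had too few to be tested.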
